A study of Arabidopsis thaliana with 12 samples.

Results

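The WRKY transcription factor family of Arabidopsis thaliana was followed through 48 loci, chosen by their locus numbers as listed WRKY genes with any counts. The list is not the whole family, and WRKY genes outside it were not followed. All 48 were found among the 32678 genes of the count table, and 41 of them were among the 18291 genes that were tested, which had a mean of at least 10 counts per library. Rosette leaves of Col-0 wild-type plants aged 4 to 5 weeks were sprayed with abscisic acid (ABA, 500 µM) or with mock solution, both in 0.5% ethanol with the detergent Tween 20, and harvested 48 h later. The groups were ABA-treated old leaves (leaf 7, L7), mock-treated old leaves (L7), ABA-treated young leaves (leaf 12, L12) and mock-treated young leaves (L12), each with 3 libraries of polyadenylated RNA. The libraries of each group carry replicate numbers, and the paper's model has a replicate term. That the same number names a shared repeat of the experiment across the groups was taken as given.

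WRKY factors are plant transcription factors that carry a conserved DNA-binding domain, named after the amino acid motif at its start, with a zinc finger behind it. They bind the W-box, a short DNA element that is common in the promoters of defense genes and of WRKY genes themselves, so that family members regulate one another. They are sorted into groups I, II and III by the number of domains and the type of zinc finger, and group II is split further into IIa to IIe. In leaves they are best known for their roles in pathogen response, salicylic acid (SA) signaling and senescence. ABA, the hormone of water deficit, acts through other transcription factors that bind the ABA-responsive element (ABRE).

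The 12 libraries held between 11811137 and 21485394 counts on genes. RAB18, a dehydrin gene used as a marker of the ABA response, had 1388, 2835 and 2474 CPM (normalised counts, relative to the scaled size of the library) in ABA-treated L7, against 95.2, 273 and 316 CPM in mock-treated L7, and 1527, 1352 and 1556 CPM in ABA-treated L12, against 35.0, 82.9 and 75.2 CPM in mock-treated L12. The libraries of replicate 3 stood apart: within every group they had lower counts than the others for long transcripts (rank correlation of their deviation with transcript length between -0.564 and -0.394), whereas the correlation was above 0 in every other library. In whole leaves, fewer cells of a type and less RNA per cell cannot be told apart.

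The promoters of the 5 members that were called lower after ABA in either leaf are shown. They were chosen by these calls, and WRKY46 was not called in old leaves nor WRKY51 in young leaves. WRKY40 (AT1G80840) lies on the plus strand of chromosome 1 at 30383561 to 30385499 and WRKY22 (AT4G01250) on the minus strand of chromosome 4 at 522530 to 524249. WRKY47 (AT4G01720) lies on the plus strand of chromosome 4 at 744804 to 748554, WRKY46 (AT2G46400) on the minus strand of chromosome 2 at 19043411 to 19044955 and WRKY51 (AT5G64810) on the plus strand of chromosome 5 at 25908247 to 25909881. Their transcripts have 4, 3, 6, 3 and 3 exons. The 300 bases before the annotated start of each gene, read 5′ to 3′ on the strand of the gene in the RefSeq annotation of TAIR10.1, are chr1:30383261-30383560 for WRKY40, chr4:524250-524549 for WRKY22, chr4:744504-744803 for WRKY47, chr2:19044956-19045255 for WRKY46 and chr5:25907947-25908246 for WRKY51. Capitals mark the letters TTGAC (the W-box core) and ACGTG (the ABRE core) on either strand.
WRKY40: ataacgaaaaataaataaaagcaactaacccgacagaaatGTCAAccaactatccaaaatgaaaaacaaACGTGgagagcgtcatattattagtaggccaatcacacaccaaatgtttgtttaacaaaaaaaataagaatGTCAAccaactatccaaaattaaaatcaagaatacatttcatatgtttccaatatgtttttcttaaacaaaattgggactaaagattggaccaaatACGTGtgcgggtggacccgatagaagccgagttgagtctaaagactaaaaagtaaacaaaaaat
WRKY22: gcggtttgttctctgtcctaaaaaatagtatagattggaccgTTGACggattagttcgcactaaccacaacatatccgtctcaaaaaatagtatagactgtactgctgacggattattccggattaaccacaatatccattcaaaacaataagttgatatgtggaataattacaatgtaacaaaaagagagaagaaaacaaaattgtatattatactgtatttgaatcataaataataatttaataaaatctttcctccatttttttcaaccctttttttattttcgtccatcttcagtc
WRKY47: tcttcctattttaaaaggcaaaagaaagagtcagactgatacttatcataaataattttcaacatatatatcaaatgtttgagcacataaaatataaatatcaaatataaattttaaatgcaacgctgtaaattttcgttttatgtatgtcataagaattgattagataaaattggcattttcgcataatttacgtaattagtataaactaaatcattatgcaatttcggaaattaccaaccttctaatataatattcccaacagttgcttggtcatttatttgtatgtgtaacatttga
WRKY46: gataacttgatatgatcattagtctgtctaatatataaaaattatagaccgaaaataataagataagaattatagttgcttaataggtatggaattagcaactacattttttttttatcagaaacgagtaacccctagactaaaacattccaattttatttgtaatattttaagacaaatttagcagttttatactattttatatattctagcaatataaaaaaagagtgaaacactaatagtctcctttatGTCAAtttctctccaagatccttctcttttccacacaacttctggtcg
WRKY51: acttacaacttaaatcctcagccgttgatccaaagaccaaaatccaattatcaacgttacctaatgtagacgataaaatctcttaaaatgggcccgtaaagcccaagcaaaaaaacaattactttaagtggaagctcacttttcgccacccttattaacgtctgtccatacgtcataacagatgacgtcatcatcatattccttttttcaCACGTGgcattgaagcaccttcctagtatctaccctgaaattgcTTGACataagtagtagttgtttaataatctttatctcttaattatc

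The W-box core was found in the 300 bases of 31 of the 48 members (64.6%), against 50.4% of 27443 protein-coding genes, and at least 2 copies were found in 15 members (31.2%), against 17.9% of these genes. The ABRE core was found in 13 members (27.1%), against 25.6% of these genes. Among the promoters shown, that of WRKY40 held 2 W-box cores and 2 ABRE cores, those of WRKY22 and WRKY46 held 1 W-box core each, that of WRKY51 held 1 W-box core and an ABRE core whose letters read on both strands, and that of WRKY47 held neither. Both motifs were searched on both strands, no W-box core overlapped an ABRE core in these 5 promoters, and a match is a description of the letters only.

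Levels of the members in the leaf spanned several orders of magnitude on a scale per length (normalised CPM per kilobase of transcript). WRKY70 (AT3G56400, group III), which acts at the crossing of SA and jasmonate signaling, was the most abundant member, at 172 ± 61.5 CPM per kb over all libraries (SD, n = 12). It held 27.5% of all counts on members, averaged over the libraries, and the 5 most counted members together held 58.3%. The median level of the tested members was 4.74 CPM per kb, against 7.40 CPM per kb for all tested genes with a known length.

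The other groups were led by members with known roles. WRKY15 of group IId, linked to osmotic stress, had 65.3 ± 65.8 CPM per kb, and WRKY33 of group I, needed for camalexin synthesis and resistance to necrotrophic fungi, had 47.5 ± 35.4 CPM per kb (SD, n = 12 each). WRKY40 of group IIa had 35.3 ± 40.8 CPM per kb and WRKY22 of group IIe had 14.3 ± 17.2 CPM per kb. These standard deviations are about as large as the means, and the ranges of the members ranked from 2 to 9 over libraries overlapped one another. The listed members of groups IIb and IIc were expressed at lower levels. The most abundant of them were WRKY6, which represses a phosphate transporter gene, and WRKY28, an activator of SA synthesis. They had 4.59 ± 2.67 and 3.16 ± 3.02 CPM per kb.

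**Figure D1:**
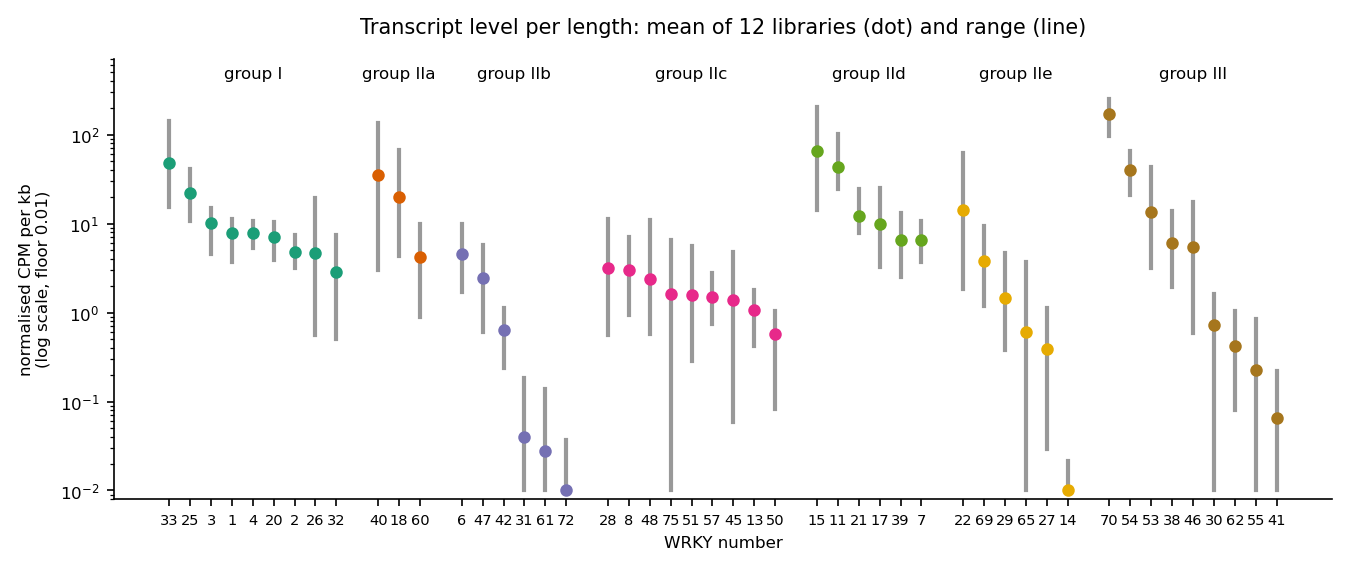
Level of all 48 members in normalised CPM per kilobase of transcript (vertical axis, log scale, values under 0.01 drawn at 0.01), sorted within each WRKY group from high to low (horizontal axis, WRKY number). Dots are means over 12 libraries and lines run from the lowest to the highest library. WRKY70 stands at 172 CPM per kb, and the 7 members that were not tested are 31, 61, 72, 14, 62, 55 and 41.

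Of the 7 members under the filter, 3 belong to group IIb, 3 to group III and 1 to group IIe. WRKY14 had 1 count and WRKY72 had 2 counts over all 12 libraries, and WRKY61, WRKY41 and WRKY31 had 13, 18 and 19 counts. WRKY55 had 48 counts and WRKY62, a negative regulator of basal defense, had 88 counts, and no library held more than 14 counts of any of the 7. Their responses were not tested.

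In old leaves, 4 members were lower after ABA and none was called higher. WRKY22, a factor downstream of a MAP kinase cascade in the response to bacterial flagellin, fell 6.33-fold, WRKY40, which acts with WRKY18 and WRKY60 in defense and ABA signaling and represses the ABA regulator gene ABI5, fell 5.40-fold, WRKY51, which acts with WRKY50 in the repression of jasmonate signaling by SA, fell 7.89-fold, and WRKY47 fell 2.83-fold. Calls were made with edgeR's quasi-likelihood test over all tested genes: the p-value, adjusted after Benjamini and Hochberg, had to be under 0.01 and the log2 fold change larger than 1 in size. By this rule 4 of 41 members were called lower, against 2.00% of all genes tested, and 0 members were called higher, against 0.935% of all genes.

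WRKY22 had 2.46, 2.64 and 4.26 CPM in ABA-treated L7, against 7.19, 23.3 and 36.1 CPM in mock-treated L7. No ABA-treated library overlapped the mock-treated ones, of which replicate 1 was the lowest. The log2 fold change was -2.66 ± 0.38 (SE, adjusted p = 0.00293). WRKY40 had 5.60, 3.99 and 9.24 CPM in ABA-treated L7, against 27.4, 11.9 and 98.0 CPM in mock-treated L7. All ABA-treated libraries lay below all mock-treated ones, and the mock-treated libraries themselves differed widely, with replicate 3 far above the others. For WRKY40 the log2 fold change was -2.43 ± 0.41 (SE, adjusted p = 0.00579).

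WRKY47 had 3.54, 3.90 and 3.46 CPM in ABA-treated L7, against 10.1, 9.36 and 11.1 CPM in mock-treated L7. Both groups were tight and well apart, with a log2 fold change of -1.50 ± 0.27 (SE, adjusted p = 0.00791). WRKY51 had 0.295, 0.269 and 0.444 CPM in ABA-treated L7, against 1.95, 1.87 and 5.30 CPM in mock-treated L7. These values rest on 6, 6 and 5 counts in the ABA-treated libraries, and on 29, 17 and 66 counts in the mock-treated ones. Even so the groups stayed apart, with a log2 fold change of -2.98 ± 0.55 (SE, adjusted p = 0.00907).

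WRKY17, which with WRKY11 restrains basal resistance to bacteria, came next in order of p and missed the threshold. It had 7.32, 6.09 and 18.6 CPM in ABA-treated L7, against 23.9, 21.6 and 39.1 CPM in mock-treated L7. Every ABA-treated library lay below every mock-treated one, and the log2 fold change was -1.51 ± 0.29 (SE, adjusted p = 0.0109).

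In young leaves 4 members were again called lower and none higher, and 3 of them, WRKY22, WRKY40 and WRKY47, were also called in old leaves. The fourth was WRKY46, a group III factor that acts with WRKY54 and WRKY70 in SA-related defense and responds to SA. WRKY40 fell 7.01-fold, WRKY22 fell 5.77-fold, WRKY46 fell 5.59-fold and WRKY47 fell 2.87-fold. The share called lower among all genes tested was 3.08%, and the share called higher was 1.47%.

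WRKY40 had 9.43, 6.42 and 51.3 CPM in ABA-treated L12, against 78.0, 78.4 and 181 CPM in mock-treated L12. The groups did not overlap, and replicate 3 was the highest library of each group. The log2 fold change of WRKY40 was -2.81 ± 0.40 (SE, adjusted p = 0.00231). WRKY22 had 5.47, 5.53 and 8.95 CPM in ABA-treated L12, against 24.1, 25.9 and 82.1 CPM in mock-treated L12. It too was lower in every ABA-treated library than in any mock-treated one, with a log2 fold change of -2.53 ± 0.36 (SE, adjusted p = 0.00233).

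WRKY47 had 1.20, 1.87 and 1.17 CPM in ABA-treated L12, against 3.15, 5.18 and 3.88 CPM in mock-treated L12. Its log2 fold change of -1.52 ± 0.28 (SE, adjusted p = 0.00674) lay close to the value in old leaves. WRKY46 had 2.39, 1.60 and 8.78 CPM in ABA-treated L12, against 20.1, 16.6 and 23.9 CPM in mock-treated L12. Both groups stayed apart, although the third ABA-treated library was well above the other 2, and the log2 fold change was -2.48 ± 0.49 (SE, adjusted p = 0.00934).

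WRKY15 was the next member by p in young leaves. It had 19.5, 27.1 and 33.5 CPM in ABA-treated L12, against 49.7, 67.3 and 262 CPM in mock-treated L12. The groups did not overlap, and the log2 fold change was -1.94 ± 0.40 (SE, adjusted p = 0.0109).

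**Figure D2:**
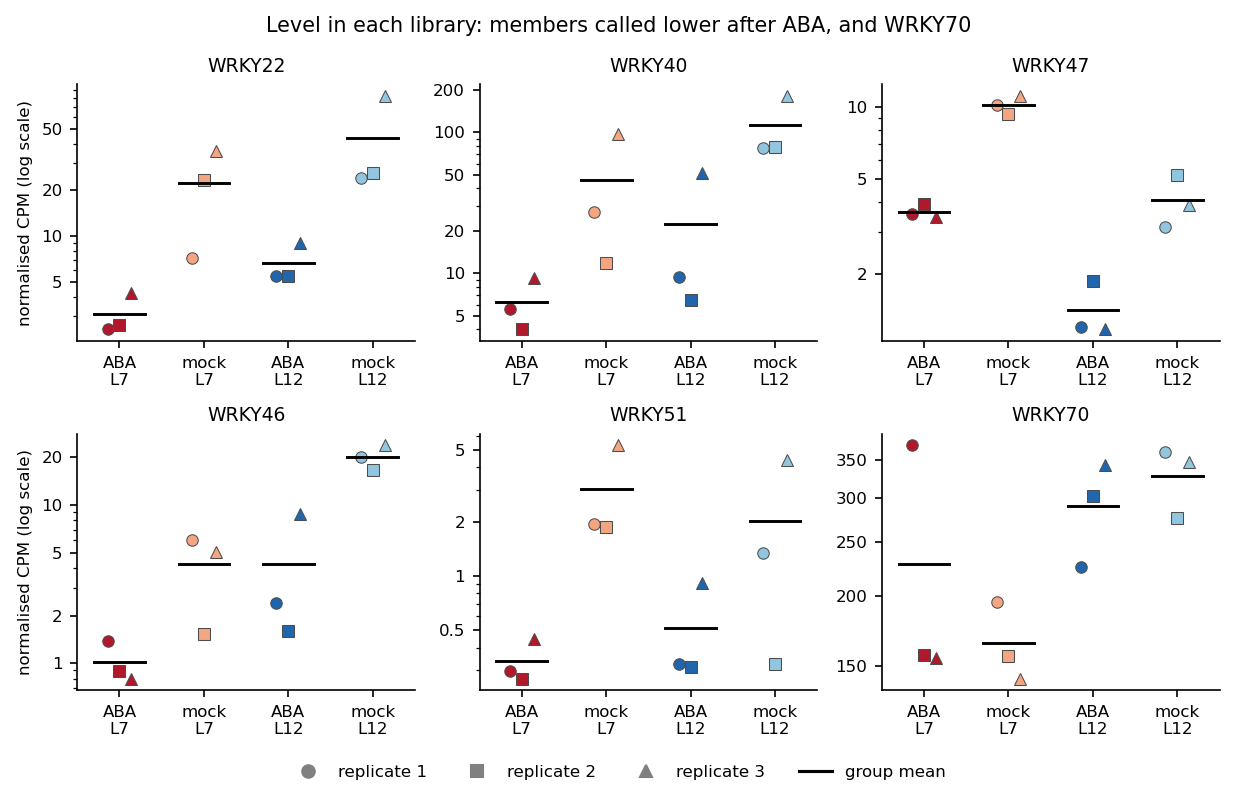
Normalised CPM (vertical axes, log scale) in each of the 12 libraries for the 5 members called lower after ABA and for WRKY70, with ABA-treated and mock-treated L7 and then ABA-treated and mock-treated L12 on the horizontal axis. Symbols mark the replicate number and black lines the group means. WRKY47 is tight within each group, whereas WRKY40 and WRKY51 are highest in replicate 3, and the groups of WRKY70 overlap within each leaf.

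Over all tested members, the called ones included, more log2 fold changes lay below 0 than above it in both leaves. In old leaves 27 of 41 members had a log2 fold change below 0, with a median of -0.58, against 0.03 over all genes tested. In young leaves 27 of 41 were below 0, with a median of -0.39, against 0.03 over all genes. Without scaling beyond library size, a setting that moved the median of all genes to 0.49 in old and 0.42 in young leaves, 22 and 21 members were below 0, but 28 members lay under the median of all genes in either leaf, as they did with the main scaling.

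Counting the libraries without a test gave a similar picture. In old leaves 12 members were lower in every ABA-treated library than in any mock-treated one, against 9.59% of all genes, and 0 members were higher in this way, against 9.86%. In young leaves 12 members were lower without overlap, against 16.9% of all genes, and 2 were higher, WRKY75 and WRKY30, against 13.2%. In the nearest libraries WRKY30 had 1.02515 CPM after ABA and 1.02509 CPM after mock, nearly a tie. WRKY75 had 0.322 and 0.293 CPM there, on 7 and 4 counts. The sign of the log2 fold change was the same in both leaves for 33 of 41 members (23 below 0 and 10 above 0), and for 77.5% of all genes.

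By group, the lowest medians were those of group IIe in old leaves (-0.89, 5 members tested) and of group IIa in young leaves (-2.52, 3 members). The 5 tested members of group IIe, which holds WRKY22 and its close relative WRKY29, were below 0 in both leaves, and WRKY29 itself had a log2 fold change of -0.89 ± 0.47 in old leaves and -1.34 ± 0.45 in young leaves (SE, not called). Group I, with the abundant WRKY33 and the heat-related WRKY25 and WRKY26, had medians of -0.01 in old and 0.21 in young leaves. In group III, WRKY53, a promoter of leaf senescence, had -1.06 ± 0.48 in old and -2.14 ± 0.47 in young leaves (SE, adjusted p = 0.176 and 0.0154), and WRKY38, a negative regulator of basal defense, had -1.61 ± 0.49 and -1.66 ± 0.50 (SE, adjusted p = 0.0609 and 0.0505).

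WRKY70, the most abundant member, had 372, 157 and 155 CPM in ABA-treated L7, against 196, 157 and 143 CPM in mock-treated L7. In young leaves it had 226, 302 and 343 CPM after ABA, against 361, 276 and 347 CPM after mock. The groups overlapped in both leaves, with log2 fold changes of 0.41 ± 0.31 in old and -0.14 ± 0.31 in young leaves (SE, adjusted p = 0.410 and 0.777).

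WRKY33 had 90.6, 44.1 and 31.1 CPM in ABA-treated L7, against 50.8, 42.0 and 128 CPM in mock-treated L7, and 47.4, 51.9 and 133 CPM in ABA-treated L12, against 134, 118 and 286 CPM in mock-treated L12. Replicate 3 was the highest in 3 of these 4 groups, the groups overlapped in both leaves, and the log2 fold changes were -0.14 ± 0.47 in old and -1.23 ± 0.46 in young leaves (SE, adjusted p = 0.861 and 0.0951). WRKY48, a negative regulator of basal defense, had 3.24, 2.33 and 1.24 CPM in ABA-treated L7, against 3.96, 4.07 and 5.13 CPM in mock-treated L7, and 1.79, 1.11 and 2.90 CPM in ABA-treated L12, against 3.84, 4.13 and 20.9 CPM in mock-treated L12. It overlapped in neither leaf but was not called (adjusted p = 0.387 and 0.0359). WRKY57, which has a role in drought tolerance, differed little between treatments, with log2 fold changes of -0.03 ± 0.38 in old and 0.0024 ± 0.40 in young leaves (SE, adjusted p = 0.963 and 0.997).

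**Figure D3:**
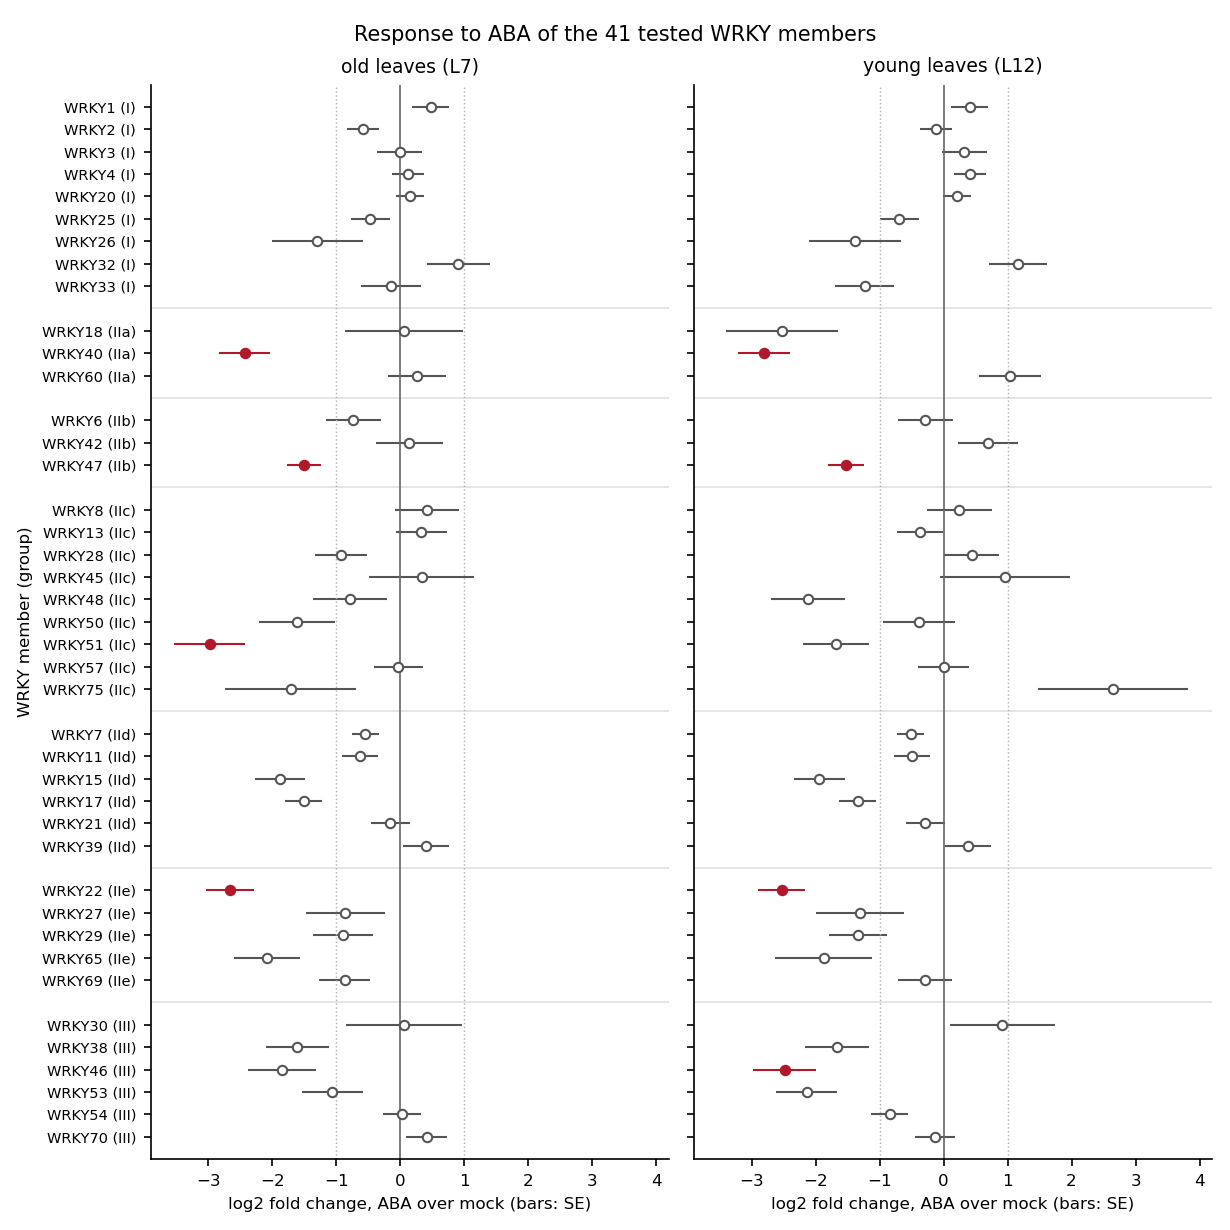
Log2 fold change of ABA over mock (horizontal axes) with its standard error for the 41 tested members, sorted by WRKY group, in old leaves (left) and young leaves (right). Filled red points are members that were called, and dotted lines mark a log2 fold change of 1 in either direction. In both panels 27 points lie below 0 and every called point is below 0.

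These calls depended on the replicate block and on single libraries. Without the replicate block 0 members were called in either leaf, and likewise 0 without all libraries of replicate 1 or of replicate 3, whereas without replicate 2 there was 1 in old leaves (WRKY40) and 6 in young leaves. In old leaves, leaving out 1 library left 0 to 6 members called: 0 without any 1 of the ABA-treated L7 libraries (replicates 1, 2 and 3) or without mock-treated L7 replicate 3, 1 (WRKY22) without mock-treated L7 replicate 1, and 2 (WRKY40 and WRKY22) without mock-treated L7 replicate 2, mock-treated L12 replicate 1 or ABA-treated L12 replicate 1. In young leaves 0 were called without ABA-treated L12 replicate 2, 1 without mock-treated L12 replicate 1 (WRKY40) or ABA-treated L12 replicate 1 (WRKY22), and 2 without mock-treated L7 replicate 3, mock-treated L12 replicate 3, ABA-treated L7 replicate 1 (WRKY40 and WRKY22 each time) or ABA-treated L12 replicate 3 (WRKY40 and WRKY46). The log2 fold changes kept their sign throughout, between -3.15 and -2.30 for WRKY22, -2.80 and -1.96 for WRKY40, -1.69 and -1.39 for WRKY47 and -3.32 and -2.59 for WRKY51 in old leaves, and between -2.81 and -2.11 for WRKY22, -3.29 and -2.37 for WRKY40, -1.70 and -1.36 for WRKY47 and -3.28 and -2.05 for WRKY46 in young leaves, when a library or a replicate number was left out. In mock-treated leaves replicate 3 was the highest library in both leaves for 16 of 41 members (39.0%), and for 26.1% of all genes. The part of the difference between replicate numbers in these responses was not tested.

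Summed levels of the 4 mesophyll markers moved with ABA as well. They lay between 30399 and 46710 CPM in ABA-treated L7, against 56575 and 120526 CPM in mock-treated L7, and between 31547 and 42604 CPM in ABA-treated L12, against 48476 and 100787 CPM in mock-treated L12. Of the 4, LHCB1.3 was the highest in every library. RCA changed least, by -0.36 in old and -0.10 in young leaves on the log2 scale. Its groups overlapped in both leaves. The 5 guard cell markers summed to 11.7 to 16.5 CPM in ABA-treated L7, against 11.6 to 25.7 CPM in mock-treated L7, and to 30.4 to 36.7 CPM in ABA-treated L12, against 24.2 to 59.9 CPM in mock-treated L12. These sums mix markers that moved in opposite directions, none of which was called. MYB60, KAT1 and HT1 changed by -1.44, -1.40 and -1.44 in old leaves on the log2 scale, and GORK by 1.44. In young leaves these markers changed by -1.14, -1.30 and -1.26, and GORK by 1.06. FAMA changed little (-0.04 in old and 0.02 in young leaves). All 4 mesophyll and all 5 guard cell markers were detected in each group. The 3 root markers summed to at most 1.95 CPM, with EXPA7 at 0 in every library, and the 2 flower markers to at most 1.32 CPM. The part of cell type in the WRKY responses was not tested.

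Whether the response of the members to ABA differed between old and young leaves was tested as an interaction. No member and none of the 18291 genes was called (0%), and the smallest adjusted p of a member was 0.581 in edgeR's quasi-likelihood test. At an unadjusted p below 0.05 there were 2 members, WRKY75 and WRKY28, against 7.42% of all genes. DESeq2 and limma with voom called 0 members as well.

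WRKY75, a factor of the phosphate starvation response and of senescence, showed the widest difference. It had 0.491, 1.39 and 0.266 CPM in ABA-treated L7, against 4.63, 0.440 and 5.30 CPM in mock-treated L7, and 0.322, 0.357 and 2.12 CPM in ABA-treated L12, against 0.129, 0 and 0.293 CPM in mock-treated L12. The groups overlapped in old leaves and not in young leaves, where the mock-treated libraries held 3, 0 and 4 counts. The old minus young difference of the log2 fold changes was -4.36 ± 1.56 (SE, unadjusted p = 0.0179, adjusted p = 0.581 in edgeR). It lay between -6.22 (without ABA-treated L7 replicate 2) and -3.31 (without mock-treated L7 replicate 1) when libraries or replicate numbers were left out.

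WRKY28 had 2.56, 7.13 and 5.33 CPM in ABA-treated L7, against 5.44, 7.60 and 16.3 CPM in mock-treated L7, and 0.874, 1.60 and 4.07 CPM in ABA-treated L12, against 0.819, 2.23 and 1.24 CPM in mock-treated L12. Its groups overlapped in both leaves, and the difference was -1.37 ± 0.60 (SE, adjusted p = 0.661 in edgeR), with a range of -2.32 (without replicate 2) to -0.43 (without replicate 3) in the same way. WRKY54, the relative of WRKY70, had 78.3, 30.3 and 66.3 CPM in ABA-treated L7, against 65.0, 46.5 and 49.7 CPM in mock-treated L7, and 30.6, 33.0 and 63.8 CPM in ABA-treated L12, against 85.5, 51.3 and 94.5 CPM in mock-treated L12. Its groups overlapped in both leaves too. WRKY18 differed by 2.59 ± 1.20, WRKY54 by 0.87 ± 0.42 and WRKY51 by -1.30 ± 0.75 on the log2 scale (SE, adjusted p = 0.689, 0.695 and 0.767 in edgeR). With libraries or replicate numbers left out, WRKY18 ranged from 0.51 (without ABA-treated L7 replicate 1) to 3.43, WRKY54 from 0.42 to 1.28 and WRKY51 from -1.86 to -0.82.

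WRKY18, which restrains basal defense together with WRKY40, had 57.3, 8.69 and 7.46 CPM in ABA-treated L7, against 13.6, 40.9 and 14.9 CPM in mock-treated L7. In young leaves it had 12.8, 8.78 and 19.0 CPM after ABA, against 24.8, 117 and 94.4 CPM after mock. Old leaves overlapped, with the first ABA-treated library far above the other 2, whereas young leaves did not overlap. For the members called in both leaves the difference was small beside its error: -0.13 ± 0.49 for WRKY22, 0.37 ± 0.55 for WRKY40 and 0.02 ± 0.34 for WRKY47 (SE, adjusted p = 0.968, 0.927 and 0.993 in edgeR), and WRKY46, called in young leaves only, differed by 0.63 ± 0.72 (adjusted p = 0.901 in edgeR). A p that misses the threshold does not show that the responses were alike.

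WRKY46 had 1.38, 0.896 and 0.799 CPM in ABA-treated L7, against 6.04, 1.54 and 5.05 CPM in mock-treated L7. These groups did not overlap either, and its log2 fold change in old leaves was -1.85 ± 0.53 (SE, adjusted p = 0.0470 in edgeR). WRKY51 in young leaves had 0.322, 0.312 and 0.908 CPM after ABA, against 1.34, 0.324 and 4.39 CPM after mock. There the groups overlapped, with a log2 fold change of -1.68 ± 0.52 (SE, adjusted p = 0.0534 in edgeR).

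The effect of leaf age was tested within each treatment. Among mock-treated leaves, 4 members were called higher in old leaves than in young ones: WRKY65 by 11.3-fold, WRKY28 by 6.41-fold, WRKY60, the partner of WRKY18 and WRKY40, by 4.40-fold and WRKY47 by 2.56-fold. WRKY46 was 5.21-fold and WRKY40 3.24-fold lower in old leaves. Among all genes tested 8.10% were called higher and 6.81% lower in this comparison, against 4 and 2 of 41 members. WRKY65 passed the low-count filter only through mock-treated L7, so the group where it was high also decided that it was tested.

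WRKY28 had the old-leaf and young-leaf values given above for mock treatment, which did not overlap, with a log2 fold change of 2.68 ± 0.44 (SE, adjusted p = 0.00252 in edgeR). WRKY65 had 2.28, 0.771 and 5.70 CPM in mock-treated L7, against 0.172, 0.0405 and 0.586 CPM in mock-treated L12. Its old-leaf values rest on 34, 7 and 71 counts and its young-leaf values on 4, 1 and 8 counts, with a mean of 13 counts over all libraries. The groups did not overlap, and the log2 fold change was 3.50 ± 0.55 (SE, adjusted p = 0.00229 in edgeR). WRKY60 had 12.6, 10.3 and 4.01 CPM in mock-treated L7, against 2.76, 1.82 and 1.32 CPM in mock-treated L12. The groups did not overlap and replicate 3 was the lowest library of each, with a log2 fold change of 2.14 ± 0.48 (SE, adjusted p = 0.00816 in edgeR).

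WRKY47, with the mock-treated values given above, was higher in every old-leaf library, with a log2 fold change of 1.36 ± 0.27 (SE, adjusted p = 0.00483 in edgeR). For WRKY46 every mock-treated old-leaf library was below every young-leaf one, with -2.38 ± 0.49 (SE, adjusted p = 0.00580 in edgeR). For WRKY40 the mock-treated groups overlapped, since replicate 3 of L7 stood above replicates 1 and 2 of L12, and the log2 fold change was -1.70 ± 0.39 (SE, adjusted p = 0.00857 in edgeR), with the old leaf lower within each of the 3 replicate numbers.

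**Figure D4:**
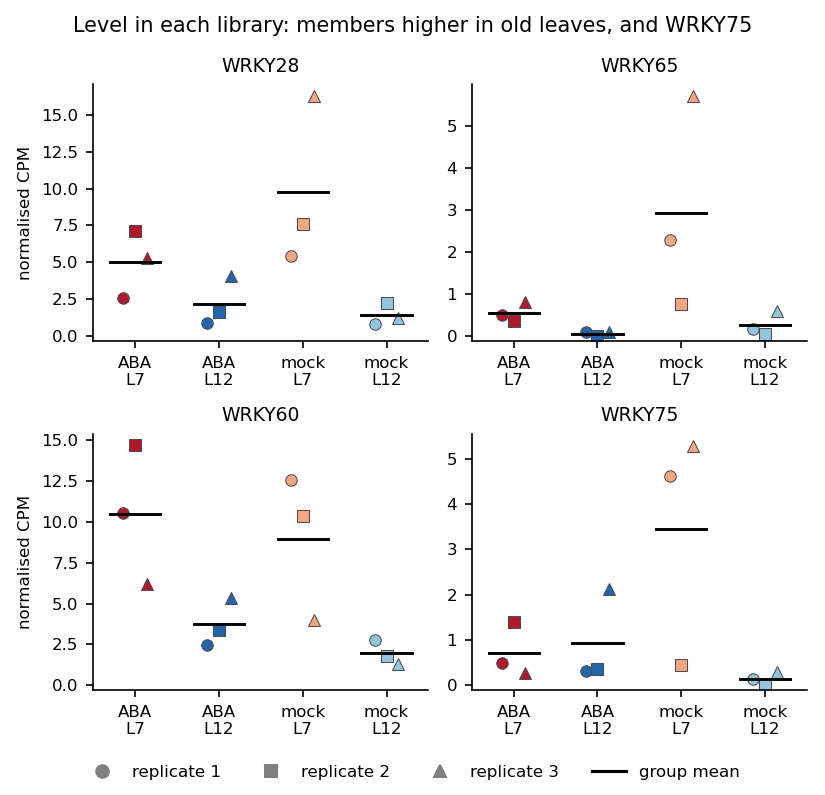
Normalised CPM (vertical axes) in each of the 12 libraries for WRKY28, WRKY65, WRKY60 and WRKY75, with ABA-treated L7 and L12 and then mock-treated L7 and L12 on the horizontal axis. Symbols mark the replicate number and black lines the group means. WRKY65 reaches 5.70 CPM in old leaves after mock and stays under 1 CPM in the other groups.

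Without overlap between the mock-treated leaves, 12 members were higher in old leaves, against 17.3% of all genes, and 4 were lower, against 14.1%. WRKY8, which is linked to salt stress, was also higher in old leaves without overlap after either treatment, with log2 fold changes of 1.62 ± 0.51 after ABA and 1.45 ± 0.51 after mock (SE, adjusted p = 0.0325 and 0.0444 in edgeR, not called). Of the other members higher after mock, WRKY75 had a log2 fold change of 4.68 ± 1.15 and WRKY45 one of 3.31 ± 0.95 (SE, adjusted p = 0.0113 and 0.0208 in edgeR, not called). WRKY75 rests on 69, 4 and 66 counts in mock-treated L7, against 3, 0 and 4 counts in mock-treated L12. Its nearest libraries lay at 0.440 and 0.293 CPM. WRKY45 had 3.29, 2.31 and 3.61 CPM in mock-treated L7, against 0.517, 0.0809 and 0.293 CPM in mock-treated L12, where it held 12, 2 and 4 counts. WRKY70 was among the members lower in old leaves, with a log2 fold change of -0.997 ± 0.32 (SE, adjusted p = 0.0295 in edgeR, not called).

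After ABA, WRKY47 alone among the members was called between leaf ages. Its ABA-treated values given above did not overlap, at 2.60-fold higher in old leaves, with a log2 fold change of 1.38 ± 0.28 (SE, adjusted p = 0.00890 in edgeR). In this comparison 3.68% of all genes were called higher and 3.13% lower in old leaves. Without overlap 7 members were higher, against 23.8% of all genes, and 7 were lower, against 24.5%.

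WRKY65 came next, with 0.491, 0.359 and 0.799 CPM in ABA-treated L7, against 0.0920, 0 and 0.0865 CPM in ABA-treated L12. The old-leaf values rest on 10, 8 and 9 counts and the young-leaf values on 2, 0 and 2 counts, and the log2 fold change was 3.29 ± 0.70 (SE, adjusted p = 0.0101 in edgeR). It was tested here only through mock-treated L7, a group outside this comparison. With the ABA-treated libraries alone it was under the low-count filter. WRKY20 had 17.5, 15.1 and 10.4 CPM in ABA-treated L7, against 24.7, 26.3 and 21.2 CPM in ABA-treated L12, with no overlap. WRKY20, WRKY40 and WRKY46 followed in order of p, with log2 fold changes of -0.77 ± 0.22, -1.32 ± 0.40 and -1.75 ± 0.53 (SE, adjusted p = 0.0231, 0.0271 and 0.0276 in edgeR). The log2 fold change between leaf ages had the same sign after ABA and after mock for 32 of 41 members, and for 83.8% of all genes.

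**Figure D5:**
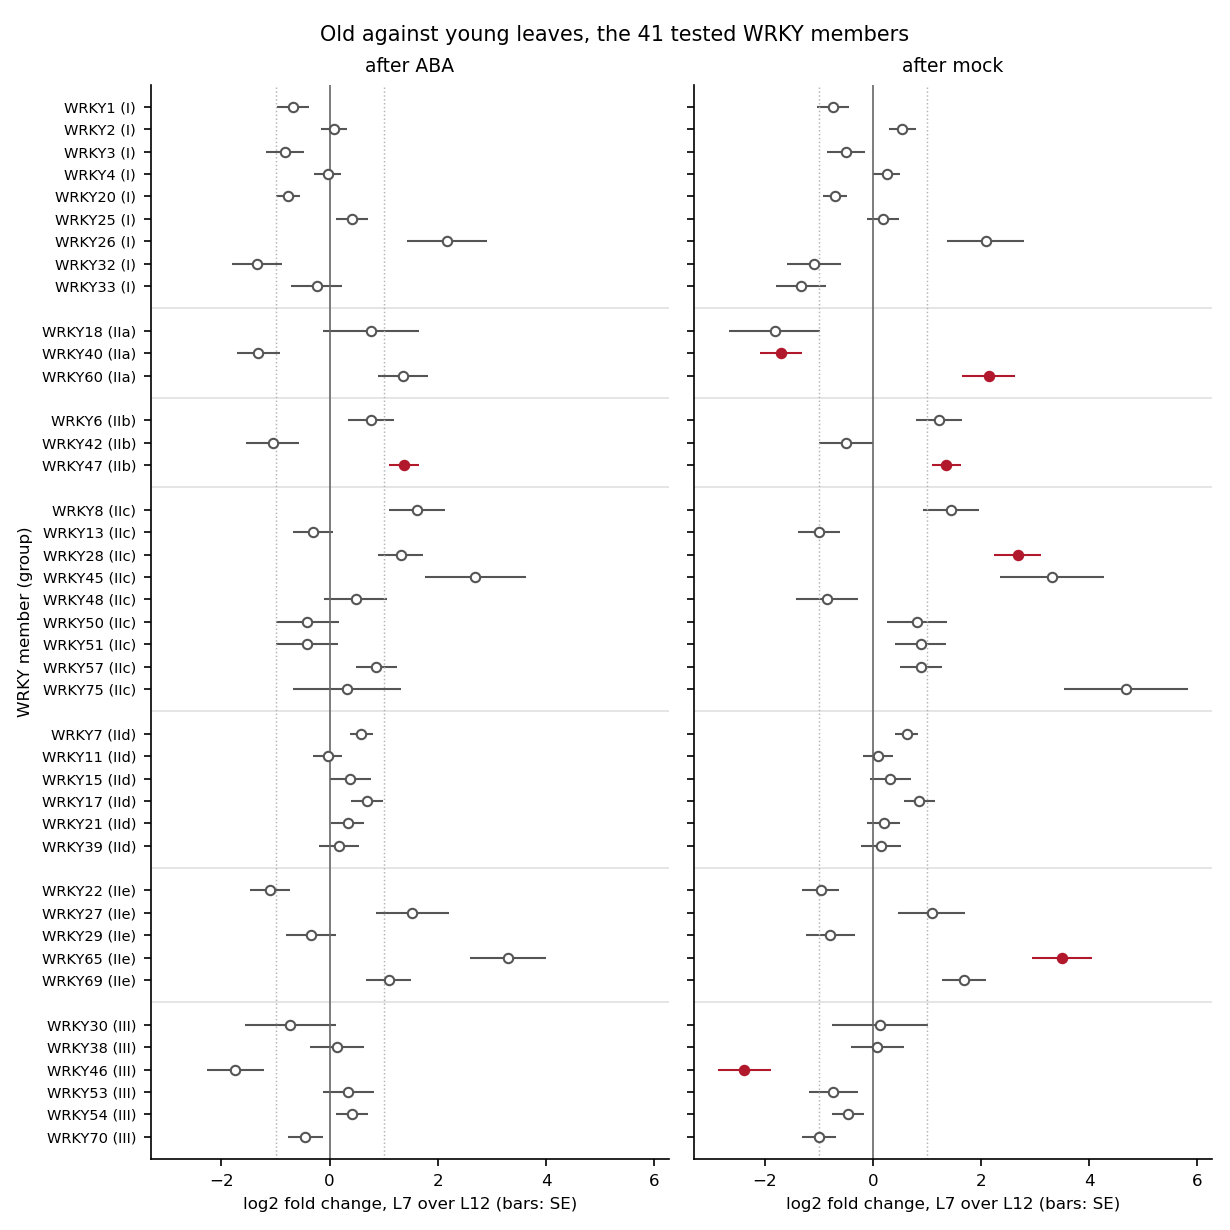
Log2 fold change of old over young leaves (horizontal axes) with its standard error for the 41 tested members, sorted by WRKY group, after ABA (left) and after mock (right). Filled red points are members that were called, and dotted lines mark a log2 fold change of 1 in either direction. WRKY47 is called in both panels, and WRKY65, WRKY28, WRKY60, WRKY46 and WRKY40 after mock.

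The age differences also rested on the block and on single libraries. Without the replicate block 0 members were called after mock and 0 after ABA, as was the case without all libraries of replicate 1 or of replicate 3, and without replicate 2 there was 1 after mock (WRKY28) and 0 after ABA. After mock, leaving out 1 library left 0 to 8 members called: 0 without mock-treated L7 replicate 3, 1 (WRKY28) without mock-treated L12 replicate 1, and 2 (WRKY65 and WRKY28) without mock-treated L7 replicate 1 or mock-treated L12 replicate 2. After ABA, WRKY47 lost its call without any 1 of the 6 ABA-treated libraries (adjusted p up to 0.0861 over all alternatives) and without mock-treated L7 replicate 1 or 3 or mock-treated L12 replicate 1, and 2 members (WRKY65 and WRKY47) were called without mock-treated L12 replicate 2 or 3. With libraries or replicate numbers left out, log2 fold changes after mock lay between 2.26 and 3.19 for WRKY28, 3.30 and 3.99 for WRKY65, 1.78 and 2.48 for WRKY60, 1.21 and 1.60 for WRKY47, -2.85 and -1.96 for WRKY46 and -2.08 and -1.20 for WRKY40, and after ABA between 1.23 and 1.56 for WRKY47, 2.79 and 3.93 for WRKY65, -0.96 and -0.68 for WRKY20, -1.65 and -0.76 for WRKY40 and -2.20 and -0.86 for WRKY46, the last 2 being closest to 0 without replicate 3. WRKY65 was under the low-count filter, and so not tested, without mock-treated L7 replicate 3 and without replicate 3, and its ranges do not include these settings.

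Marker sums differed with leaf age too. The sums of the guard cell markers, given above, were lower in old leaves after ABA without overlap. Xylem markers summed to 18.4 to 33.3 CPM in ABA-treated L7, against 36.1 to 59.6 CPM in ABA-treated L12, and to 23.8 to 30.3 CPM in mock-treated L7, against 40.9 to 74.2 CPM in mock-treated L12. Markers of meristem and dividing cells summed to 0.178 to 3.15 CPM in ABA-treated L7, against 5.11 to 6.91 CPM in ABA-treated L12, and to 0.241 to 1.48 CPM in mock-treated L7, against 1.98 to 15.3 CPM in mock-treated L12, with no overlap. Of the 3 epidermis markers, PDF1 was called lower in old leaves after either treatment, and their sums were 137 to 190 CPM in ABA-treated L7, against 191 to 275 CPM in ABA-treated L12, and 86.6 to 180 CPM in mock-treated L7, against 151 to 314 CPM in mock-treated L12. The 5 senescence markers, of which 2 are also on the list of WRKY targets and SAG12 had counts in 1 library only, summed to 86.3 to 134 CPM in mock-treated L7, against 18.9 to 99.1 CPM in mock-treated L12, and to 25.7 to 196 CPM in ABA-treated L7, against 50.2 to 185 CPM in ABA-treated L12. Their part in the age differences of the members was not tested.

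Lists of genes whose products act with the members were counted in the same fit, and after ABA 2.00% of all genes were called lower in old and 3.08% in young leaves. Of 6 VQ proteins, which bind WRKY factors, 6 were tested and 0 were called in any comparison, and SIB1, the partner of WRKY33, had log2 fold changes of -1.08 ± 0.26 in old and -1.24 ± 0.26 in young leaves after ABA (SE, adjusted p = 0.0252 and 0.0131 in edgeR). Of 6 members of the MAP kinase cascade that phosphorylates WRKY factors, 1 was called, the kinase kinase gene MKK4, lower after ABA in young leaves (-1.61 ± 0.32, SE, adjusted p = 0.00964 in edgeR). It had 7.54, 12.6 and 11.4 CPM in ABA-treated L12, against 19.7, 21.5 and 65.4 CPM in mock-treated L12, with no overlap. Of the 3 SA co-receptor genes of the NPR family, 0 were called.

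Among 14 genes listed as targets of WRKY factors, 10 were tested. CBP60G, a calmodulin-binding activator of SA synthesis, was lower after ABA in both leaves: -2.45 ± 0.46 in old and -2.72 ± 0.45 in young leaves on the log2 scale (SE, adjusted p = 0.00925 and 0.00429 in edgeR). It had 4.23, 4.17 and 3.20 CPM in ABA-treated L7, against 16.6, 13.6 and 47.3 CPM in mock-treated L7, and 8.42, 6.60 and 7.57 CPM in ABA-treated L12, against 32.3, 32.7 and 113 CPM in mock-treated L12. ABI5, an ABA-regulated factor whose gene WRKY40 represses, was higher after ABA in young leaves, at 4.46, 5.97 and 3.59 CPM in ABA-treated L12, against 1.25, 1.38 and 1.17 CPM in mock-treated L12 (log2 fold change 1.86 ± 0.35, SE, adjusted p = 0.00814 in edgeR). In old leaves, where WRKY40 was also called lower, ABI5 had 1.82, 3.90 and 1.42 CPM after ABA, against 1.68, 1.21 and 1.04 CPM after mock. These groups overlapped and ABI5 was not called there. A link between WRKY40 and ABI5 was not tested. None of the 10 was called between leaf ages or in the interaction.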

How the data were processed

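Poly(A) RNA of 12 leaf samples was sequenced from directional libraries. Per the labels, the submitters' processing notes name CASAVA 1.8.2, cutadapt 1.5, TopHat2 2.0.10, HTSeq 0.6.1 and the TAIR10 genome, and say neither how ambiguous reads nor how strands were treated in counting. The authors deposited raw counts for each gene. The 5 summary lines of HTSeq, 5.97% to 10.3% of a library, were left out. Reads that map to several places were not counted, so near-identical copies are undercounted. Whether reads of overlapping antisense genes were told apart in counting is not known. No library was a copy of another, and all were mapped to groups by their labels.

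Tests used R 4.3.3 and edgeR 4.0.16: genes averaging at least 10 counts per library, TMM factors, and a quasi-likelihood fit of 4 groups with the replicate number as a block over all 12 libraries, with Benjamini-Hochberg adjustment over 18291 genes. The model terms and the low-count filter follow the study, which used limma with voom and the same limits on q-values from the qvalue package; the Benjamini-Hochberg adjustment used here in their place is a different threshold. Standard errors were taken from the log2 fold change and the F statistic. Normalised CPM are counts relative to the TMM-scaled library size. The block rests on the replicate numbers. Deviations from group means correlated with a median of 0.361 over 18 same-numbered pairs (16 over 0.1) and -0.217 over 36 other pairs (7 over 0.1, up to 0.461). Deviations cancel out within a group, so the negative median of the other pairs follows in part from the positive one. The test was tested on simulated data with changes in ABA-treated old leaves only. These counts held no differences between replicate numbers and no dependence on transcript length, so the simulation says nothing about either.

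Alternatives were DESeq2 1.42.0, limma 3.58.1 with voom (also with Storey q-values at lambda 0.5), no block, other filters and scalings, only the compared groups, a robust fit, an adjusted p of 0.05, an offset for transcript length and GC content with the block, and leaving out libraries or replicate numbers. Members called in a comparison and the 5 with the smallest p are given with full test values. The most abundant member of each WRKY group and members with known roles are given by level, and some of them also with test values. Gene lists were described by counts. The members and lists were chosen with earlier results of these data known. Symbols, lengths, coordinates and promoters come from the RefSeq annotation of TAIR10.1, to which all 48 members matched.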

Additional observations from a re-analysis of the deposited data

How the results depend on the processing

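For ABA in old leaves, where 4 members were called, the count was 7 with DESeq2 and with Storey q-values, 8 at an adjusted p below 0.05, 1 with library size only and 0 with only the compared groups. In young leaves, where 4 were called, it was 9 with DESeq2, 7 with limma and voom under either adjustment, 8 at an adjusted p below 0.05, 1 with library size only and 2 with only the compared groups. Without the replicate block, 0 members were called in each of the 5 comparisons. Between mock-treated leaf ages, where 6 were called, the count was 10 with DESeq2 and with Storey q-values, 13 at an adjusted p below 0.05 and 1 with library size only. Between ABA-treated leaf ages, where 1 was called, it was 8 with DESeq2, 2 with limma and voom, 7 with Storey q-values, 2 without a filter on low counts, 11 at an adjusted p below 0.05 and 0 with library size only. The interaction gave 0 members under every alternative run, while DESeq2 called 35 of all genes. These counts show how the calls moved between settings. Most stand without the share of all genes called in the same setting, so they do not compare members with other genes.

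Leaving out a library or a replicate number gave 0 to 6 members in old leaves, 0 to 6 in young leaves, 0 to 8 between mock-treated leaf ages and 0 to 2 between ABA-treated ones. Without replicate 3 no member was called in any comparison. The median log2 fold change of the tested members between mock-treated leaf ages was 0.19, and -0.15 with library size only, which moved the median of all genes to -0.39. Between ABA-treated leaf ages it was 0.32, and -0.081 without replicate 1 and -0.079 without ABA-treated L7 replicate 2, in a range of -0.081 to 0.43 over the libraries and replicate numbers left out. The cause was not tested. No log2 fold change of a called member, or of the 5 members with the smallest p in a comparison, turned its sign. The signs of other named members were not followed over these settings.

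Counts of all genes moved with the tool and the block: 537 genes were called in old leaves, 1712 with DESeq2 and 50 without the block, and 831 in young leaves, 2054 with DESeq2 and 139 without the block. The depth limits WRKY65, WRKY75 and WRKY51, which rest on few counts in some groups.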
